A study of Arabidopsis thaliana with 18 samples.

Results

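The cytochrome P450 genes described here were the 105 genes, of 11437 in the deposited table, whose symbol is a systematic P450 name (the letters CYP, a family number, subfamily letters and a gene number). RefSeq annotation TAIR10.1 holds 236 genes with such a symbol, and those not in the table were not analysed here. P450 genes usually listed under another symbol, such as FAH1 or CPD, fall outside this choice and are given separately. Of the 105 genes, 62 had enough counts to be tested and 43 did not, including 35 with fewer than 10 counts in every library.

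RNA-seq was carried out on whole wild-type Arabidopsis thaliana seedlings of the ecotype Col-0, aged 14 days and raised on 1/2MS medium under 12 h of light and 12 h of darkness. The 18 libraries formed 6 groups of 3. At ZT 2 (zeitgeber time, hours after lights on) seedlings were collected from medium holding 10 µM DPI, 25 µM PI, 12.5 µM AEG, 2 µM TYR or only the solvent DMSO (0.1%), to which they had been moved before lights on. Untreated seedlings, called NT, were collected at ZT 0. From its letters, PI was read as pentamidine isethionate, AEG as AEG3482 and TYR as Tyrphostin AG879, all listed chemicals. By the series title, all of these agents act on sugar signalling. DMSO and NT therefore differed in time, light and transfer to new medium as well as in solvent, and these cannot be told apart.

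P450 enzymes are haem-containing monooxygenases, most of them anchored in the endoplasmic reticulum, that use electrons passed on by a P450 reductase to insert an oxygen atom into small molecules. In plants they form one of the largest enzyme families. They make and inactivate hormones, build lignin, sterol and cuticle precursors, and produce defence compounds such as glucosinolates and camalexin.

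Sequences were read from RefSeq TAIR10.1 to show what the family shares and how close some copies are. The haem iron is held by a cysteine in a signature of the form F-x-x-G-x-R-x-C-x-G. Codons for this exact signature were present in 83 of the 105 genes and in 199 of 27444 RefSeq coding genes (0.725%). The other 22, among them CYP707A1, CYP707A4 and CYP79B2, do not hold these exact letters. The 30 bases that encode the signature are given for 6 genes that the results below turn on, with the cysteine codon in capitals.
CYP706A5: tttggatctggcaggagaattTGCgcaggt
CYP706A6: tttggatctggcaggagaattTGCgcaggt
CYP81D5: tttgggatgggacgacgagctTGTcctgga
CYP81D4: tttgggatgggacgaagagctTGTcctgga
CYP94B3: tttcaagccgggccgagggttTGTgtaggg
CYP79F1: tttagcaccggtcgacgtggcTGCatcggt
The neighbours CYP706A5 and CYP706A6 were identical over all 30 bases, and the neighbours CYP81D5 and CYP81D4 over 29. CYP94B3 shared 23 with CYP94C1. The cysteine codon was TGT in 61 genes and TGC in 22.

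Library totals over the listed genes lay between 3156987 and 3249696 counts, of which P450 genes took 0.276% to 0.490%. Between 49 and 58 P450 genes reached 10 counts in a library. A floor of 3 counts corresponded to 0.923 to 0.950 CPM, the counts scaled to library size. The leaf gene LHCB2.1 was between 4739 and 11831 CPM in every library. Libraries of one group also differed from each other in FSD1, an iron superoxide dismutase gene, and LOX2, a lipoxygenase gene of jasmonate synthesis. FSD1 was over 100 CPM in all NT libraries and in 5 of the 15 libraries of ZT 2, and at most 4.46 CPM in the other 10. LOX2 lay between 1058 and 7986 CPM at ZT 2. Nothing in the labels says whether replicates came from separate cultures, so p-values measure the spread between these libraries.

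Levels of different genes are compared in the authors' TPM (a transcript measure that corrects for gene length). Summed over the 105 genes, TPM was 1470 ± 211 with DMSO and 1035 ± 62.7 in NT (SD, n = 3 each). The DMSO sums ran from 1241 to 1658 and the NT sums from 971 to 1096, so the groups did not overlap. An exact two-sided permutation test gave p = 0.1, the smallest that 3 libraries against 3 allow. The sums with the chemicals were 1631 ± 138 on DPI medium, 1408 ± 131 on PI medium, 1643 ± 138 on AEG medium and 1489 ± 73.8 on TYR medium (SD, n = 3 each).

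A few genes, named here by their rank in TPM, held much of this. The 5 highest genes gave 40.3% of the sum with DMSO and 41.9% in NT, and CYP72A13, CYP98A3 and CYP89A2 were among them in both. CYP79F1 and CYP81D11 joined them with DMSO, in place of CYP71B7 and CYP81D4. CYP79F1 averaged 124 TPM with DMSO, the third level in the family, and 10.12 TPM in NT, where it ranked 25. CYP81D11 averaged 128 TPM with DMSO and 25.8 TPM in NT. At the low end, 51 genes averaged under 1 TPM with DMSO and 49 did so in NT.

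**Figure D1:**
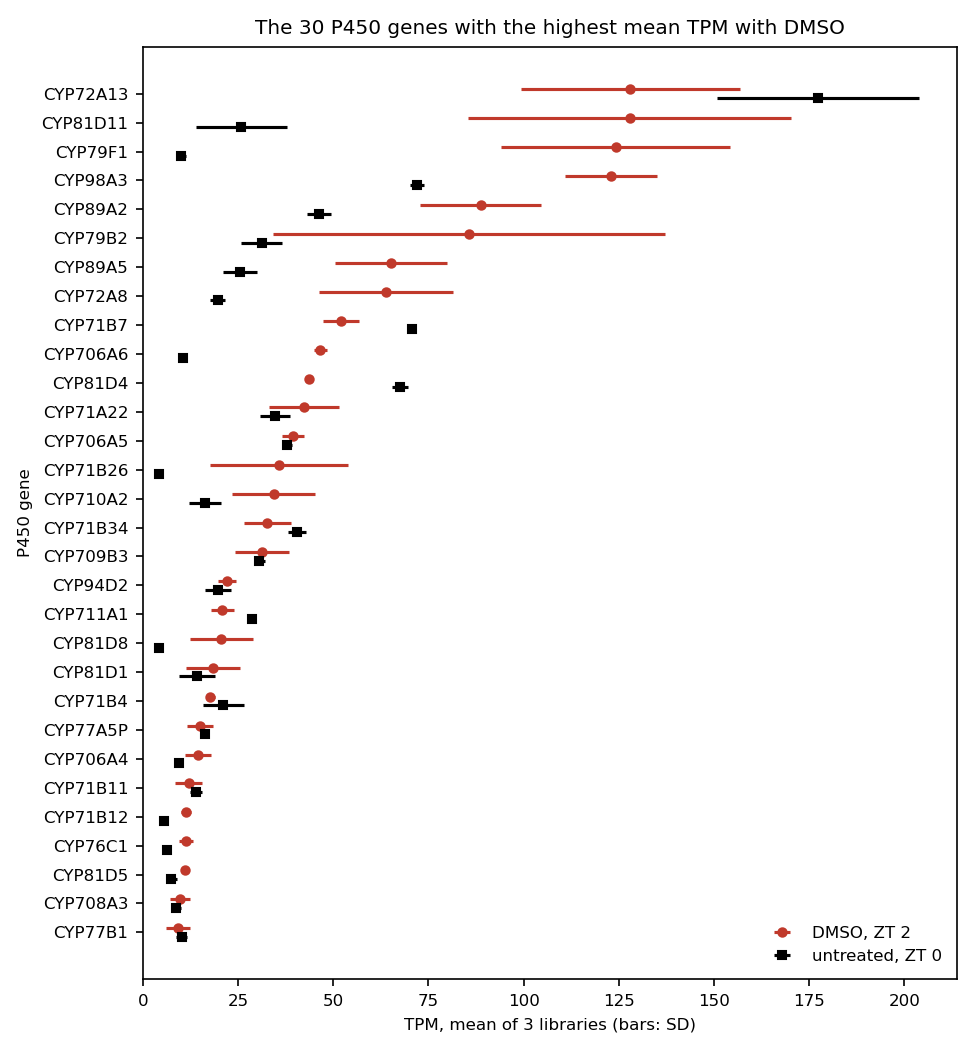
Mean TPM (x axis, with SD bars, n = 3) of the 30 P450 genes (y axis) with the highest level with DMSO, as red circles for DMSO at ZT 2 and black squares for untreated seedlings at ZT 0. CYP79F1 stands at 124 TPM with DMSO and 10.12 in NT, while CYP72A13 is high in both groups.

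The comparison of DMSO with NT asked which P450 genes changed over the first hours of light on new medium. Of the 62 genes tested, 20 rose and 7 fell at a Benjamini-Hochberg adjusted p under 0.05 in edgeR's quasi-likelihood test, so 43.5% were called. Over all 9006 genes tested the share was 35.6%, with 19.6% higher and 16% lower. The DMSO libraries lay wholly above the NT libraries for 20 P450 genes and wholly below them for 9, against 25.1% and 24.3% of all genes. At least 2-fold changes were called for 32.3% of the P450 genes and 14.6% of all genes. The median log2 fold change was 0.20 for P450 genes and 0.02 for all genes, and the median absolute change was 0.76 and 0.41. Between 19 and 29 P450 genes were called when single libraries or replicate numbers were left out, where no share over all genes was computed.

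**Figure D2:**
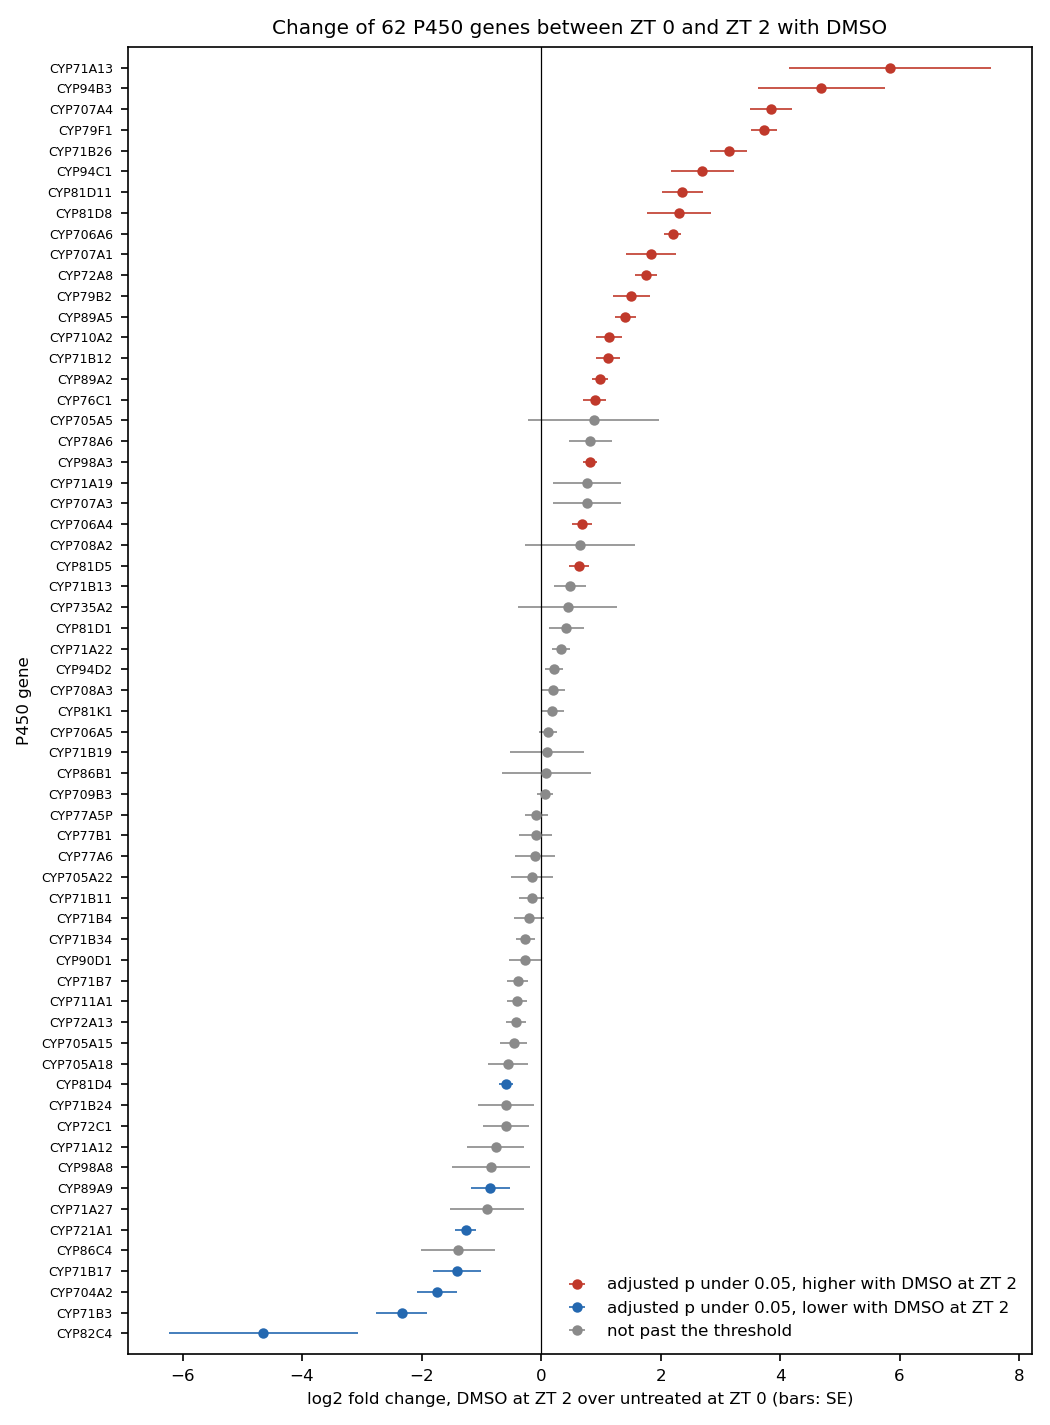
Log2 fold change of DMSO at ZT 2 over untreated at ZT 0 (x axis, bars are SE) for the 62 tested P450 genes (y axis), coloured by whether the adjusted p was under 0.05. The 20 genes that rose include CYP79F1 at 3.73, and the 7 that fell include CYP71B3 at -2.33. The position of CYP71A13 depends on the fit, since its NT counts were all 0, and that of CYP82C4 rests on 1 NT library.

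Glucosinolates are sulphur-containing defence compounds of the cabbage family, and camalexin is the main antimicrobial indole of Arabidopsis. Of 17 listed P450 genes, 4 were in the table and tested. Of these, 3 rose and 1 did not pass, where 19.6% of all genes tested rose. CYP79F1, which turns chain-elongated methionine into aldoximes at the entry to aliphatic glucosinolates, had 430, 563 and 356 CPM with DMSO, against 32.1, 33.2 and 36.4 CPM in NT. Every DMSO library was far above every NT library, a 13.2-fold difference (log2 3.73, SE 0.22; edgeR, adjusted p = 3.51e-10). Its close copy CYP79F2 was not analysed here.

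CYP79B2 makes indole-3-acetaldoxime from tryptophan, the step shared by indole glucosinolates and camalexin. It had 120, 402 and 189 CPM with DMSO, against 92.2, 65.9 and 91.2 CPM in NT. The groups did not overlap, but the DMSO libraries spread widely and replicate 2 was the highest (log2 1.51, SE 0.31; edgeR, adjusted p = 0.000833). Without DMSO replicate 2 the log2 fold change was 0.90 (edgeR, adjusted p = 0.00874), and without replicate 2 in every group it was 0.75 (edgeR, adjusted p = 0.0632).

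CYP71A13, which turns that aldoxime into indole-3-acetonitrile for camalexin, had 0, 18 and 3 counts with DMSO and 0 in every NT library. Its mean with DMSO was at least 2.39-fold above the floor of 3 counts per NT library (edgeR, adjusted p = 0.0117), and the groups overlapped at 0. Without DMSO replicate 2 its mean was 0.451 CPM, under the floor of 0.925 CPM, so that no bound could be given, and the adjusted p was 0.132 (edgeR). Part of its counts were not whole, and it may share reads with another gene. The related CYP71A12 had 7.82, 17.8 and 3.31 CPM with DMSO, against 24.4, 12.1 and 12.4 CPM in NT, and did not pass (log2 -0.76, SE 0.48; edgeR, adjusted p = 0.235), although it passed as lower without DMSO replicate 2 (edgeR, adjusted p = 0.0277). PAD3, the P450 that completes camalexin and is listed under that symbol, had 8.76, 39.5 and 8.42 CPM with DMSO, against 6.17, 2.11 and 5.63 CPM in NT (log2 2.01, SE 0.72; edgeR, adjusted p = 0.0350). Its call was also lost without DMSO replicate 2, where the log2 fold change was 0.89 (edgeR, adjusted p = 0.385), and without any 1 of the NT libraries. All 3 tested glucosinolate genes outside the family rose, of 11 listed. These were BCAT4, an aminotransferase of methionine chain elongation, SUR1, a C-S lyase, and SOT16, a sulphotransferase, with log2 fold changes of 2.70, 2.59 and 2.74. That of SOT16 was 2.15 without replicate 2 in every group.

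Jasmonoyl-isoleucine is the active jasmonate, and enzymes of the CYP94 family oxidise it to less active forms. Of 6 listed P450 genes, 2 were tested and both rose, where 19.6% of all genes tested rose. CYP94B3, the 12-hydroxylase of the hormone, had 2.82, 29.0 and 10.2 CPM with DMSO, against 1.23, 0.302 and 0 CPM in NT. The groups did not overlap, and replicate 2 was again the highest DMSO library (log2 4.69, SE 1.07; edgeR, adjusted p = 0.00184; 0.0600 without replicate 2 in every group). Its log2 fold change was 3.61 without DMSO replicate 2 and 6.22 without NT replicate 1. CYP94C1, which carries the oxidation on to the carboxylated form, had 5.95, 7.01 and 11.1 CPM with DMSO, against 1.85, 0.604 and 1.18 CPM in NT (log2 2.69, SE 0.53; edgeR, adjusted p = 0.000489; log2 3.29 without replicate 1 in every group). The jasmonate genes tested outside the family, LOX2, AOC2, OPR3 and JAZ1, rose by 5.07, 5.38, 3.29 and 4.11 on the log2 scale. Without DMSO replicate 2 these log2 fold changes were 4.001, 4.48, 2.46 and 3.47, and without replicate 1 in every group those of LOX2 and OPR3 were 5.68 and 3.90. LOX2 itself had 1058, 7397 and 2370 CPM in the DMSO libraries, the same order as CYP79B2 and CYP94B3. Whether the LOX2 state of single libraries took part in these changes was not tested.

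Abscisic acid is inactivated by 8′-hydroxylation, carried out by the CYP707A enzymes. Of its 3 measured genes, from 4 listed, 2 rose, where 19.6% of all genes tested rose. CYP707A4 had 13.1, 19.8 and 12.0 CPM with DMSO, against 0.617, 0.906 and 1.48 CPM in NT, a 14.3-fold difference with no overlap (log2 3.84, SE 0.35; edgeR, adjusted p = 7.75e-08). CYP707A1 had 8.76, 14.98 and 12.0 CPM with DMSO, against 1.85, 2.42 and 5.63 CPM in NT (log2 1.83, SE 0.42; edgeR, adjusted p = 0.00181; 0.0548 without replicate 2 in every group), with a log2 fold change of 2.46 without NT replicate 3. For CYP707A3 the groups overlapped, with 8.14, 6.37 and 6.62 CPM with DMSO, against 4.01, 1.81 and 6.52 CPM in NT (edgeR, adjusted p = 0.321).

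The other hormone lists held no member of the family called between DMSO and NT. The 2 genes of the gibberellin list in the table, CYP714A2 and CYP72A9, were not tested. CYP90D1 (a brassinosteroid C-23 hydroxylase) and CYP72C1 (which lowers brassinosteroid levels) had log2 fold changes of -0.27 and -0.59. CYP735A2, a cytokinin hydroxylase, had 2.19, 1.91 and 0.902 CPM with DMSO, against 0.925, 1.21 and 1.48 CPM in NT. CYP711A1, the MAX1 enzyme of strigolactone synthesis, narrowly missed the threshold, with 46.3, 57.7 and 41.8 CPM with DMSO, against 65.1, 65.0 and 63.1 CPM in NT (log2 -0.41, SE 0.16; edgeR, adjusted p = 0.0589). Its groups did not overlap, and it passed under 4 of the alternatives. Against NT, CYP711A1 was called lower with PI and AEG (edgeR, adjusted p = 0.0357 and 0.0153) but not with DPI or TYR. CYP72C1 was called lower against NT with DPI, PI and AEG (edgeR, adjusted p = 0.0284, 0.0313 and 0.0329) but not with TYR. Brassinosteroid P450 genes under other symbols did fall. CPD, the C-3 oxidase, had 239, 270 and 275 CPM with DMSO, against 491, 489 and 444 CPM in NT (log2 -0.86, SE 0.12; edgeR, adjusted p = 9.42e-06). BR6OX1, a C-6 oxidase, was at or under 1.504 CPM with DMSO, against 5.63 to 6.78 CPM in NT (edgeR, adjusted p = 0.0197), a call that was lost without DMSO replicate 2 (adjusted p = 0.0794), without replicate 1 or 2 in every group (0.0841 and 0.111) and with the FSD1 range as a covariate (0.0632). GA3, the ent-kaurene oxidase of gibberellin synthesis, had a log2 fold change of 0.05, with a sign that turned under several alternatives.

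Among genes of structural and specialised products, CYP98A3 is the coumaroyl shikimate 3′-hydroxylase of lignin synthesis. It had 340, 290 and 327 CPM with DMSO, against 185, 185 and 173 CPM in NT, a 1.76-fold difference (log2 0.82, SE 0.13; edgeR, adjusted p = 3.80e-05). Its relative CYP98A8, an enzyme of pollen phenolamides, was at 0.902 to 2.50 CPM with DMSO and 1.54 to 4.23 CPM in NT and did not pass. FAH1, the ferulate 5-hydroxylase (a P450 under another symbol), had 556, 582 and 457 CPM with DMSO, against 91.3, 84.9 and 96.9 CPM in NT (log2 2.55, SE 0.14; edgeR, adjusted p = 1.79e-10). All 6 tested phenylpropanoid genes outside the family rose, of 8 listed. Among them were PAL1 (log2 1.89) at the entry of the pathway and HCT (log2 0.84), which makes the ester that CYP98A3 hydroxylates. Of 3 tested carotenoid genes outside the family, 1 rose and 2 did not pass. The lists of genes outside the family were chosen with earlier results known. Over all genes tested 19.6% rose.

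CYP710A2, a sterol C-22 desaturase, had 71.7, 135 and 87.5 CPM with DMSO, against 35.5, 56.8 and 41.8 CPM in NT (log2 1.13, SE 0.22; edgeR, adjusted p = 0.000408). CYP76C1, a linalool oxidase known from flowers, had 29.1, 32.8 and 40.0 CPM with DMSO, against 17.0, 21.5 and 16.3 CPM in NT (log2 0.90, SE 0.19; edgeR, adjusted p = 0.00110). Both rose with no overlap between groups. The thalianol-cluster genes CYP705A5 and CYP708A2, known from roots, stayed at or under 4.69 CPM in DMSO and NT libraries, and neither passed. The cutin gene CYP77A6 and the suberin gene CYP86B1 had log2 fold changes of -0.10 and 0.09, whose signs turned when single libraries were left out. CYP78A6, of a group that promotes organ growth, had 8.45, 21.3 and 16.2 CPM with DMSO, against 6.48, 8.16 and 11.3 CPM in NT (edgeR, adjusted p = 0.0825; 0.0198 without DMSO replicate 1).

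Of the 5 genes listed as stress-inducible or tied to iron shortage, 2 were called higher, 2 lower and 1 did not pass. Over all genes tested 19.6% were higher and 16% lower. The lower calls were each lost in several alternatives. CYP81D11, induced by jasmonate and by foreign chemicals, had 171, 342 and 318 CPM with DMSO, against 29.0, 77.3 and 54.8 CPM in NT (log2 2.36, SE 0.35; edgeR, adjusted p = 2.34e-05). CYP81D8, a stress-responsive relative, had 48.8, 32.2 and 70.1 CPM with DMSO, against 8.33, 13.0 and 9.18 CPM in NT (log2 2.31, SE 0.53; edgeR, adjusted p = 0.00198). Their close relative CYP81D1 did not pass (log2 0.42, SE 0.30; edgeR, adjusted p = 0.290). CYP89A9, which acts on products of chlorophyll breakdown, had 22.2, 24.5 and 13.2 CPM with DMSO, against 29.0, 47.1 and 31.7 CPM in NT, and passed narrowly (edgeR, adjusted p = 0.0487), a call lost in 7 alternatives, among them those without DMSO replicate 1 or 3 or NT replicate 2 or 3. CYP82C4, which hydroxylates the coumarin fraxetin under iron shortage, had 0.939, 0.319 and 0.602 CPM with DMSO, against 48.4, 0.906 and 0.296 CPM in NT. The groups overlapped and its call (edgeR, adjusted p = 0.0278) rested on NT replicate 1, without which the log2 fold change was 0.06 (edgeR, adjusted p = 0.988). It was also lost with DESeq2 (adjusted p = 0.0687) and without any 1 of the DMSO libraries.

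Genes without a listed role changed as well. CYP706A6 had 190, 197 and 198 CPM with DMSO, against 47.8, 39.9 and 39.1 CPM in NT (log2 2.21, SE 0.14; edgeR, adjusted p = 9.24e-10). CYP71B26 had 42.6, 126 and 74.9 CPM with DMSO, against 8.63, 10.6 and 8.29 CPM in NT (log2 3.14, SE 0.31; edgeR, adjusted p = 2.14e-07). CYP72A8 had 132, 238 and 180 CPM with DMSO, against 50.0, 58.0 and 54.5 CPM in NT (log2 1.76, SE 0.18; edgeR, adjusted p = 3.65e-07). The groups of these 3 genes did not overlap, and the DMSO libraries of CYP71B26 spread more widely than those of CYP706A6. CYP89A5 and CYP71B12 also rose, by 1.41 and 1.11 on the log2 scale. CYP89A2, CYP706A4 and CYP81D5, chosen after their values were seen, rose by 0.99, 0.69 and 0.63. The count of CYP706A6 was whole in 0 libraries, and part of the counts of CYP89A5 and of CYP72A13 were not whole. Reads of close copies may therefore be mixed in these genes, and the sum of CYP706A6 and CYP706A5 is given below.

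Of the falls outside the lists, that of CYP71B3 was the largest. It had 5.01, 5.74 and 3.31 CPM with DMSO, against 20.7, 28.7 and 21.6 CPM in NT, a 5.03-fold lower level (log2 -2.33, SE 0.42; edgeR, adjusted p = 0.000235). CYP704A2 had 3.44, 6.05 and 6.92 CPM with DMSO, against 14.5, 20.8 and 19.8 CPM in NT (log2 -1.74, SE 0.33; edgeR, adjusted p = 0.000393). Neither gene's groups overlapped. CYP721A1, CYP71B17 and CYP81D4 had log2 fold changes of -1.26, -1.41 and -0.58, and the call of CYP71B17 was lost without replicate 1 or without replicate 2 in every group (edgeR, adjusted p = 0.0678 and 0.142). For CYP81D4 the replicates were nearly equal, with 116, 117 and 110 CPM with DMSO, against 171, 172 and 171 CPM in NT.

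**Figure D3:**
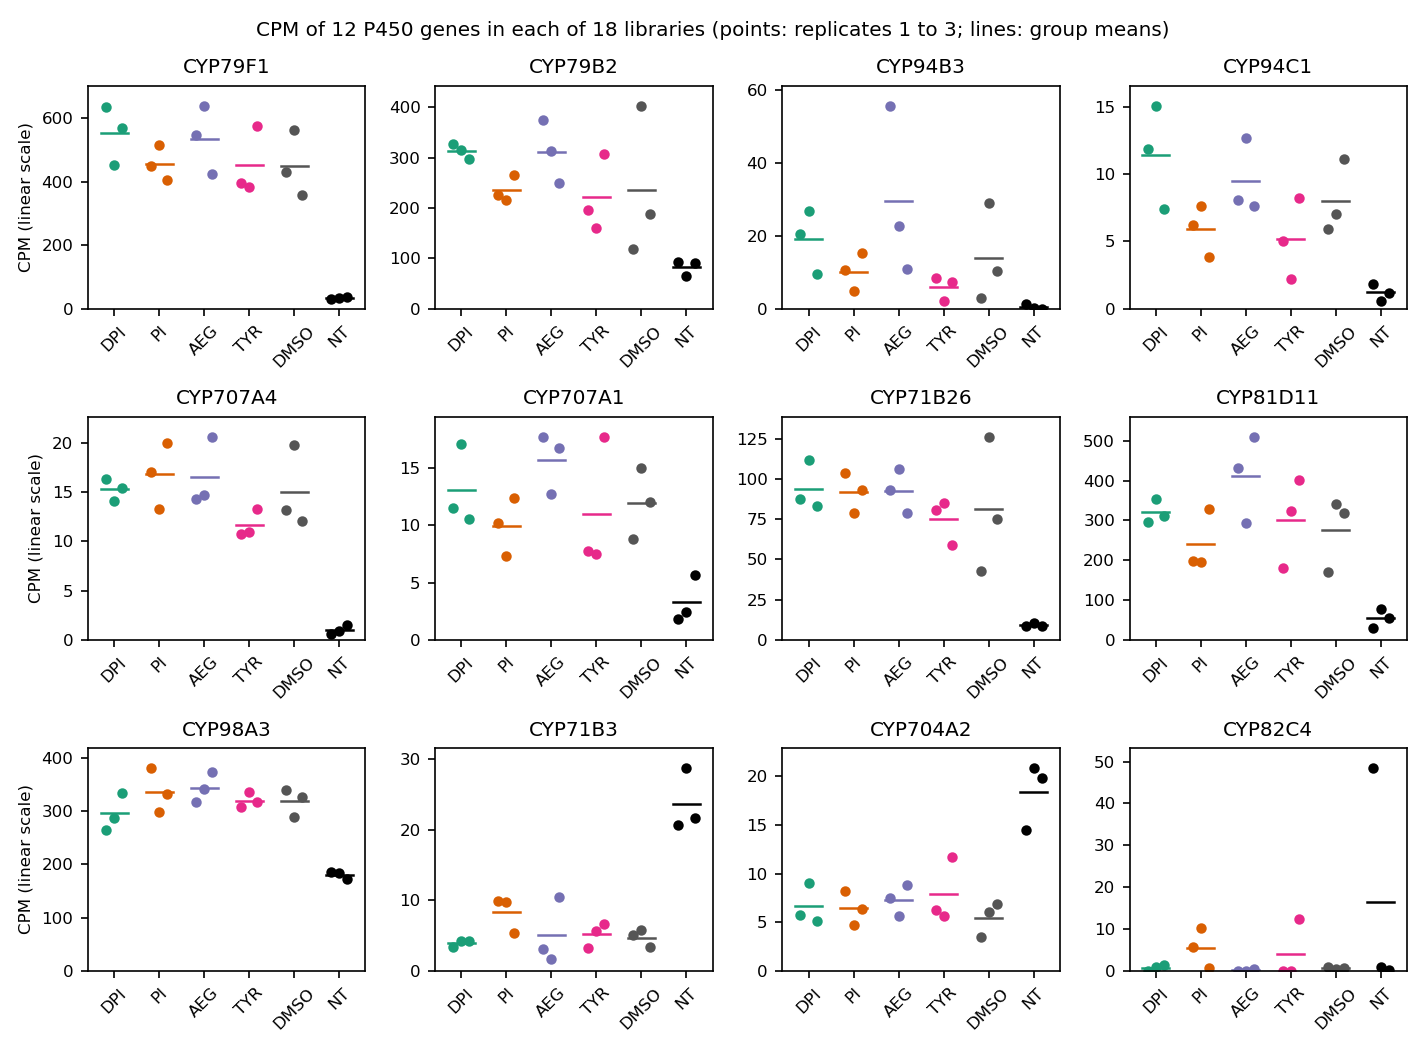
CPM (y axis, linear) of 12 P450 genes in each library, with the 6 groups on the x axis, points for replicates 1 to 3 and lines for group means. CYP79F1 is at 356 CPM or more with DMSO and at 36.4 or less in NT, CYP71B3 is lower in every ZT 2 library than in NT, and CYP82C4 is high in a single NT library.

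Neighbouring genes of the family, named here by position, were looked at in pairs. In RefSeq gene order 19 pairs of members were adjacent, 11 of them with both genes tested. Of these 11 pairs, 8 had 1 gene called, 1 had both called, and 0 had both called in the same direction. In 5 more pairs 1 gene was called and the other was not tested. Pairs can share a gene, as those of CYP71B26 do, so they are not separate cases. Adjacent pairs were not counted over all genes, so no share can be set beside these counts. Of single genes, 43.5% of the tested P450 genes and 35.6% of all genes were called. The pair with both called was CYP81D5, which rose, and CYP81D4, which fell. Their signature bases differ at a single place. CYP71B26 rose between CYP71B4 and CYP71B34, which had log2 fold changes of -0.21 and -0.26 and did not pass. CYP706A6 rose beside CYP706A5 (log2 0.11). The count of CYP706A6 was whole in 0 libraries, but the summed count of CYP706A5 and CYP706A6 was whole in all 18 (within 0.011), as when reads that match both are divided by estimation. The sum of the pair was 330 ± 14.0 CPM with DMSO and 167 ± 8.72 CPM in NT (SD, n = 3 each).

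P450 enzymes depend on redox partners. Of 7 listed, 4 were tested, of which 1 rose, 1 fell and 2 did not pass. Over all genes tested 19.6% rose and 16% fell. ATR1, a P450 reductase, had 183, 183 and 140 CPM with DMSO, against 592, 713 and 593 CPM in NT (log2 -1.91, SE 0.18; edgeR, adjusted p = 1.32e-07). CB5-C, a cytochrome b5, had 107, 273 and 173 CPM with DMSO, against 24.1, 20.8 and 18.7 CPM in NT (log2 3.12, SE 0.30; edgeR, adjusted p = 1.63e-07). CB5-E and CBR1, another cytochrome b5 and its reductase, did not pass, with log2 fold changes of 0.28 and 0.27. The second P450 reductase gene, ATR2, was not analysed here.

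Because many transcripts of the early morning are under control of the circadian clock, the 250 bases before each RefSeq gene start were searched on both strands for 4 motifs. These were the CCA1 binding site AAAAATCT, the evening element AAAATATCT, the G-box CACGTG and the W-box core TTGAC, none of which contains another. The CCA1 binding site was found before 5 of the 20 genes that rose (CYP79F1, CYP706A4, CYP706A6, CYP81D5 and CYP89A5), 0 of the 7 that fell, 4 of the 35 not called and 6.69% of 27443 promoters. The evening element was before CYP71B26 alone among the 20 and before 2.36% of all promoters. The G-box was before 3 of the 20 (CYP707A1, CYP81D11 and CYP81D8), 0 of the 7, 1 of the 35 and 6.49% of all. The W-box core was before 5 of the 20, 5 of the 7, 19 of the 35 and 44.9% of all. A match describes letters only. CYP94B3 and CYP707A4, with non-overlapping log2 rises of 4.69 and 3.84, had none of the 4 motifs. From the genes with a CCA1 binding site or evening element, the windows of 3 with large, non-overlapping rises are given. They are from RefSeq TAIR10.1, 5′ to 3′ on the gene's strand. The CCA1 binding site or, for CYP71B26, the evening element is in capitals, read in reverse complement for CYP706A6 and CYP71B26. The windows lie at chr1:5608432-5608681 on the plus strand, chr4:7316872-7317121 on the minus strand and chr3:9634823-9635072 on the minus strand, and none touches an exon of another gene.
CYP79F1: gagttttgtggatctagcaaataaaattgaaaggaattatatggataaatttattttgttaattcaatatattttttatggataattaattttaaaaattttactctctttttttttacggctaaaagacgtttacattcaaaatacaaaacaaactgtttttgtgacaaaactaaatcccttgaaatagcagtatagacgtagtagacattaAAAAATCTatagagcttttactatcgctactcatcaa
CYP706A6: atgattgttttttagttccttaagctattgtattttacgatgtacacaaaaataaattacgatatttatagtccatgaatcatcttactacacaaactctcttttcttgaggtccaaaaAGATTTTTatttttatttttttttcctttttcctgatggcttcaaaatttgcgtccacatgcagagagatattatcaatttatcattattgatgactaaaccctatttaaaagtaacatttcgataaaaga
CYP71B26: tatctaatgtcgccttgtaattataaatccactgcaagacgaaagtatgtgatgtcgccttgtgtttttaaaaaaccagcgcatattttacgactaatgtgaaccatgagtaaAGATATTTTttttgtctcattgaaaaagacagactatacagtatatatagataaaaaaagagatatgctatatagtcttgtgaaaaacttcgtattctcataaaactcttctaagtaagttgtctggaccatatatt

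The comparisons of each chemical with DMSO asked whether a chemical moved P450 transcripts beyond the solvent at the same time. By edgeR 0 of the 62 genes were called for DPI, PI, AEG or TYR, against 0 of all 9006 genes (0%) in each comparison, and DESeq2 also called 0 P450 genes. At an unadjusted p under 0.05 the P450 genes numbered 5 under DPI (323 of all genes), 0 under PI (223 of all), 5 under AEG (302 of all) and 4 under TYR (351 of all). The smallest adjusted p of any P450 gene in the DPI comparison was 0.990, in the PI comparison 0.999, in the AEG comparison 0.9995 and in the TYR comparison 0.997 (edgeR).

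Over the 62 genes, log2 fold changes against DMSO ran from -1.49 to 1.26 with DPI and from -1.48 to 3.06 with PI. They ran from -2.18 to 1.34 with AEG and from -3.97 to 2.63 with TYR. The 3.06 was that of CYP82C4, at 0.620 CPM on average with DMSO. The gene with the smallest p in each comparison is given next, which need not be the one with the largest difference. With AEG this was CYP89A5, at 274, 240 and 313 CPM with AEG, against 146, 234 and 178 CPM with DMSO, with no overlap (log2 0.57, SE 0.16; edgeR, adjusted p = 0.9995). With DPI it was CYP71B17, at 1.82, 2.103 and 1.92 CPM with DPI, against 6.26, 1.27 and 8.12 CPM with DMSO (log2 -1.41, SE 0.50; edgeR, adjusted p = 0.990). With TYR it was CYP71A13, with 0, 0 and 1 counts with TYR, against 0, 18 and 3 counts with DMSO (edgeR, adjusted p = 0.997). With PI it was CYP71B12, at 25.3, 17.7 and 21 CPM with PI, against 30.7, 28.0 and 23.8 CPM with DMSO (log2 -0.37, SE 0.19; edgeR, adjusted p = 0.999). Only the AEG gene had groups that did not overlap among these 4.

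Set against NT, each chemical gave the changes side by side with those of DMSO, although these 5 comparisons share the NT libraries and so are not independent. With DPI 31 P450 genes were called, 22 higher and 9 lower, where 40.1% of all genes were called, 21.7% higher and 18.4% lower. With PI there were 32, 21 higher and 11 lower, against 38% of all genes, 20.2% higher and 17.8% lower. AEG gave 34, 21 higher and 13 lower, against 40% of all genes, 21.2% higher and 18.8% lower. TYR gave 28, 21 higher and 7 lower, against 37.4% of all genes, 20.1% higher and 17.3% lower. In all 5 media 18 of the 62 genes were higher and 5 were lower, against 14.4% and 11.3% of all genes tested. The 5 lower in all were CYP71B3, CYP71B17, CYP704A2, CYP721A1 and CYP81D4. None was called in both directions, and 22 were called in no medium, against 46.3% of all genes. CYP79F1 was at 453 to 634 CPM in the DPI libraries, 406 to 514 in the PI libraries, 423 to 637 in the AEG libraries, 384 to 575 in the TYR libraries and 356 to 563 in the DMSO libraries, against 32.1 to 36.4 in NT. CYP707A4 was at 14.1 to 16.4 CPM on DPI medium, 13.3 to 20.0 on PI medium, 14.3 to 20.6 on AEG medium, 10.7 to 13.3 on TYR medium and 12.0 to 19.8 on DMSO medium, against 0.617 to 1.48 in NT.

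**Figure D4:**
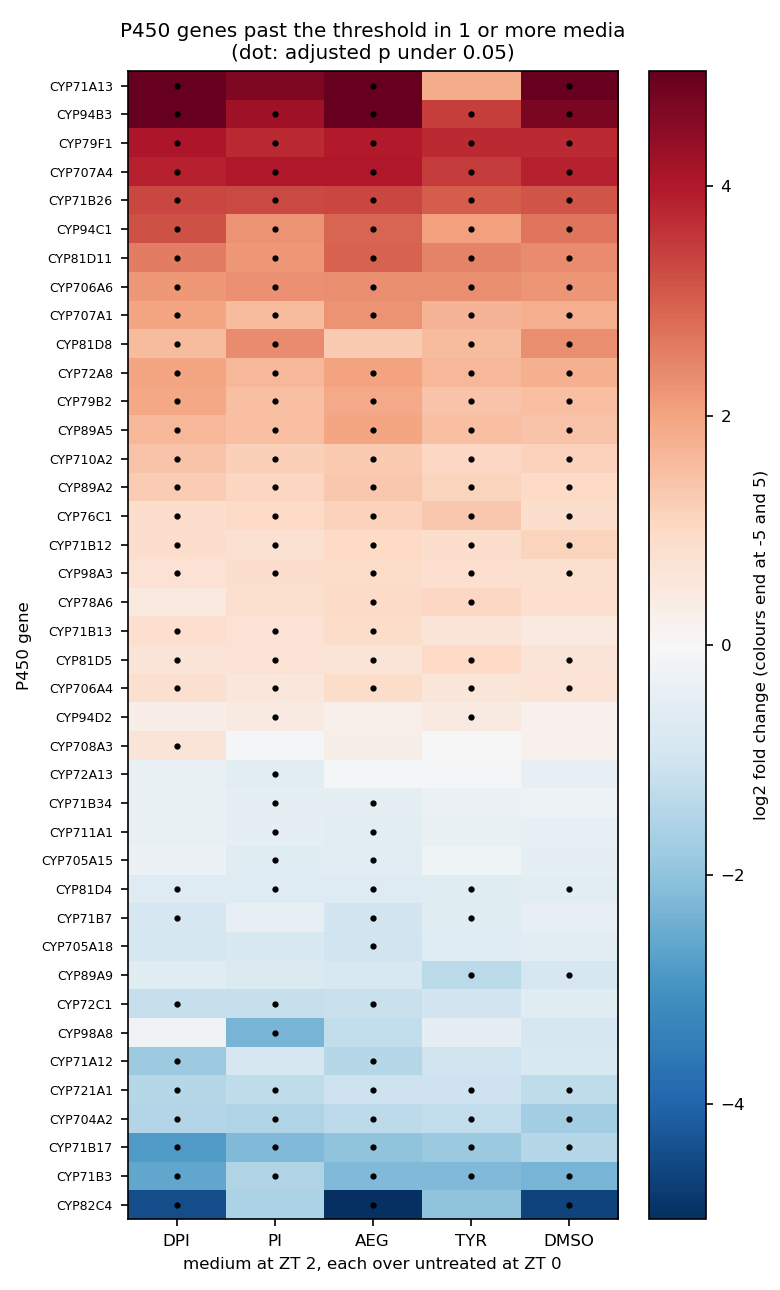
Log2 fold change over untreated seedlings at ZT 0 (colour) in the 5 media at ZT 2 (x axis) for the P450 genes past the threshold in 1 or more media (y axis), with a dot where the adjusted p was under 0.05. The 18 genes higher in all media have 5 dots each, and CYP71A13 and CYP82C4, whose values rest on few counts or 1 library, vary most between columns.

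P450 transcripts also varied between libraries of one medium. The median SD of log2 CPM within the ZT 2 groups was 0.40 for the 62 P450 genes and 0.26 for all genes, and 0.22 for the 27 P450 genes and 0.20 for all genes with a mean log2 CPM of at least 5. CYP94B3 ran from 10.8 to 55.6 CPM among the AEG libraries and from 2.19 to 8.33 CPM among the TYR libraries. The genes named next were chosen after their values were seen. In all 5 media CYP79B2, CYP706A4 and CYP72A8 were highest in the library that was highest in LOX2. In at least 4 of the 5 media this held for 10 P450 genes (16.1%) and 5.91% of all genes, and 0 P450 genes were lowest there in at least 4, against 6.80% of all genes. Being highest in the library highest in FSD1, in at least 4 media, held for 6 P450 genes (9.68%) and 4.79% of all. These shares describe libraries that share their state across genes. With the FSD1 range (over or under 100 CPM) as a covariate, an alternative chosen after seeing the data, 27 P450 genes were called between DMSO and NT, 20 higher and 7 lower, and the calls of CYP82C4 and CYP89A9 were lost (edgeR, adjusted p = 0.112 and 0.209). The share over all genes was not computed with this covariate. The part of the LOX2 state in the changes between groups was not tested.

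**Figure D5:**
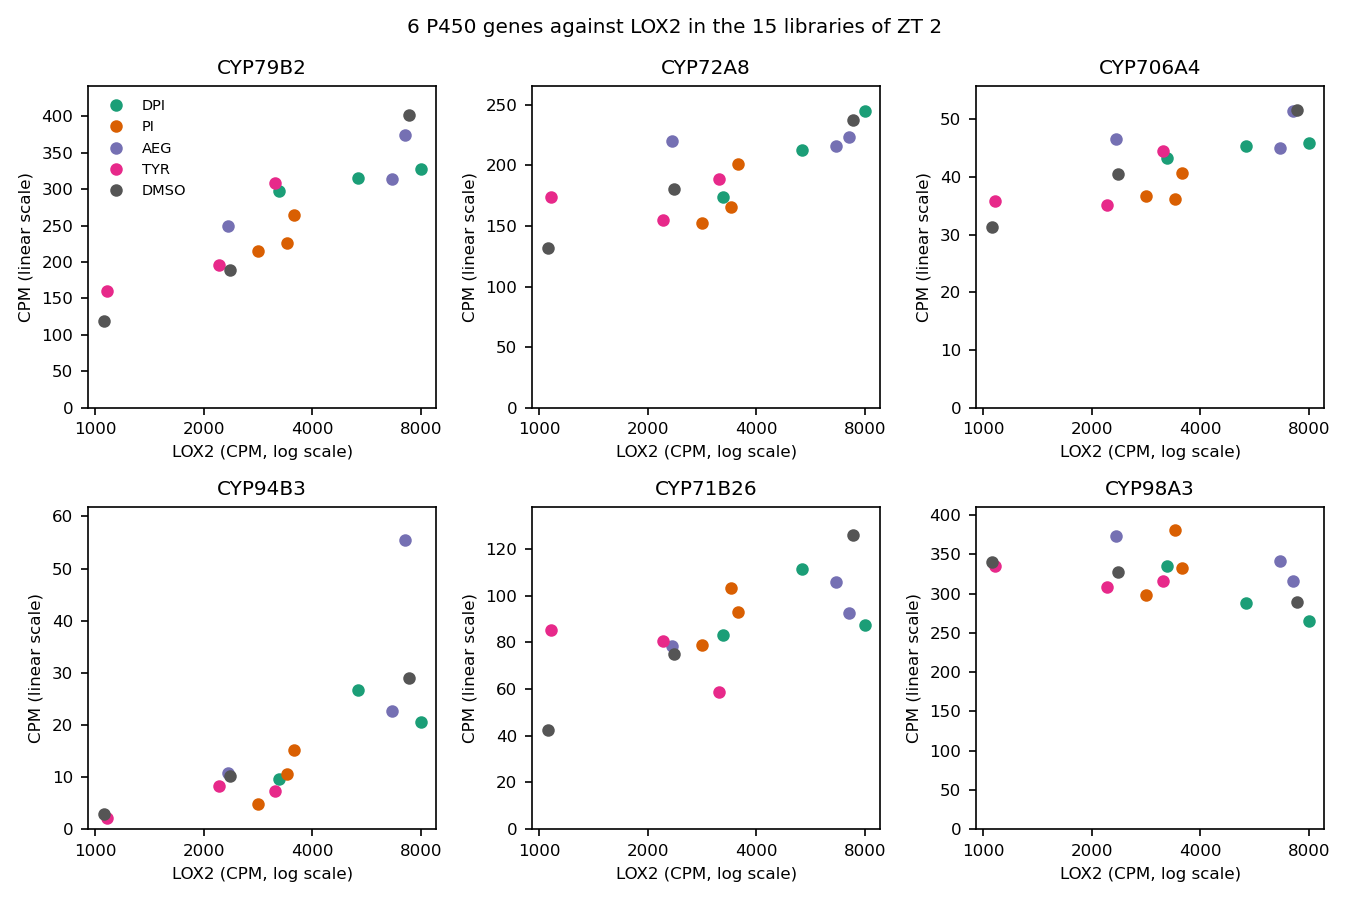
CPM of 6 P450 genes (y axis, linear) against LOX2 (x axis, CPM on a log scale) in the 15 libraries of ZT 2, coloured by medium. CYP79B2 and CYP94B3 are low in the DMSO library with LOX2 at 1058 CPM and high in the one at 7397 CPM, while CYP98A3 lies between 265 and 381 CPM throughout.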

How the data were processed

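The authors deposited 1 table with FPKM, TPM and estimated count values per gene and library, per the file headers. The submitters' processing notes name HISAT2 2.2.1, RSEM 1.2.22 and build TAIR10. Of 29431 lines, 17450 named no gene and were left out, and 544 lines repeated an identifier with equal values. Counts were not whole in 3.59% of values and were rounded. The listed genes held 48.4% to 49.0% of the full TPM, so CPM is relative to them. FPKM values were not tested. Whether counting used strand is not given in the sources used here, so antisense reads cannot be told apart.

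Counts were tested with edgeR 4.0.16 in R 4.3.3 (TMM factors 0.942 to 1.07, filterByExpr, 1 coefficient per group over 18 libraries, 12 residual degrees of freedom), with Benjamini-Hochberg adjustment over all 9006 genes. Standard errors were computed as the absolute log2 fold change over the square root of F. The members and lists were chosen with earlier results of these data known. Named genes were the 12 largest rises and 12 largest falls among called members with average log2 CPM of at least 2, tested members of the role lists, and the smallest p for each chemical. No 2 libraries of the same group agreed within sampling noise (chi-square per gene at least 3.00). Floors cover counting error only. The test was checked on simulated data with changes set between DMSO and NT. Of 200 genes changed 2-fold 62.5% were called, and of 200 changed 4-fold 94.5%, with 9 and 6 other genes called. Alternatives were DESeq2 1.42.0, other scaling, filters and thresholds, the replicate block and left-out libraries. RefSeq TAIR10.1 gave sequences and gene order.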

Additional observations from a re-analysis of the deposited data

How the results depend on the processing

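Of 1234 values recomputed under alternatives, 1176 stayed the same. For genes this meant the same direction and call, and for counts a difference of no more than 1.5 times. For the median it meant a difference under 0.234, its SD between DMSO libraries. The 1176 include the comparisons of chemicals with DMSO, where 0 P450 genes were called, and genes that were not called. Lower P450 genes between DMSO and NT numbered 4 at an adjusted p under 0.01, and P450 genes called between PI and NT numbered 21 when a 2-fold change was also required. For these counts and those below, no share over all genes was computed. With single libraries or replicate numbers left out, calls between DMSO and NT ranged from 19 to 29 (14 to 22 higher, 5 to 9 lower), DPI against NT from 27 to 32, PI from 23 to 29, AEG from 26 to 33 and TYR from 24 to 30, the calls between chemicals and DMSO stayed at 0, and the median log2 fold change between DMSO and NT ranged from 0.08 to 0.33. Signs turned for genes that were not called, with log2 fold changes from DMSO over NT from -0.36 to 1.34 for CYP705A5, -0.72 to 1.24 for CYP708A2, -0.70 to 0.31 for CYP77A6, -0.36 to 0.48 for CYP86B1, -0.54 to 0.092 for CYP90D1, -0.081 to 0.22 for GA3 and -0.22 to 0.015 for PSY. The called CYP82C4 ranged from -5.23 to 0.056, its highest value without NT replicate 1. With the FSD1 range as a covariate, an alternative chosen after seeing the data, GA3 was at -0.10, and BR6OX1, CYP82C4 and CYP89A9 lost their calls (edgeR, adjusted p = 0.0632, 0.112 and 0.209). The cause was not tested. The replicate numbers did not pair the DMSO and NT libraries (correlations of deviations from -0.022 to 0.038). Against DMSO these correlations ran from -0.13 to 0.11 for DPI and from -0.13 to 0.026 for PI. For AEG they ran from -0.068 to 0.13 and for TYR from -0.31 to -0.16. With the replicate block 26 P450 genes were called between DMSO and NT, where CYP82C4 lost its call (edgeR, adjusted p = 0.0651). Depth limits the 43 untested genes.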
